A study of Rattus norvegicus with 70 samples.

Results

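Messenger RNA of the livers of air-exposed male Wistar-Kyoto rats is described here against 5 other tissues of rats from the same study. The liver group comprised the 6 libraries labelled Liver Air 1, 2, 6, 7, 9 and 10, out of 68 analysed. It was chosen by its labels alone, tissue liver and treatment air. Rats of this inbred strain, a line long used in cardiovascular and inhalation research, breathed air or ozone (0.8 ppm), each over 4 h. All rats were male, and their age is not given in the sources used here. The comparison groups were the air libraries of lung (n = 6), adrenal gland (n = 5), hypothalamus (n = 6), adipose tissue (n = 5) and muscle (n = 6). All 6 tissues were frozen on dry ice. Liver and lung RNA came from a Qiagen RNeasy Mini kit, muscle RNA from a fibrous tissue kit, adipose RNA from a lipid tissue kit, and hypothalamus and adrenal RNA from a Zymo Direct-Zol kit, per the labels. Apart from lung, which shared the kit of liver, tissue and extraction kit cannot be told apart. The tissues were also processed as tables of their own, and a gene was called only where liver differed at least 4-fold from each of the 5 tissues.

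The liver secretes most proteins of blood plasma, makes bile acids and lipoproteins, disposes of ammonia as urea, releases glucose between meals and detoxifies foreign compounds. Most of this work is done by hepatocytes, its main cell type, while Kupffer cells (resident macrophages), sinusoidal endothelium, stellate cells and bile duct cells make up the rest. The libraries carried the liver identity that their label states, as read from hepatocyte markers. Of 12 hepatocyte markers, 12 were called higher in liver than in all 5 tissues, and together they took 13.4 to 14.7% of all liver reads. In the other tissues they took at most 0.187% in lung, 0.261% in adrenal, 0.133% in hypothalamus, 0.0432% in adipose tissue and 0.000653% in muscle. Liver libraries held 12706373 to 16678455 gene reads, and those of the other 5 groups 8854272 to 18848151.

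Values below are gene reads per 1000000 of the library (CPM), and a difference is liver minus the other tissue on the scale log2(CPM + 1). That scale understates the difference for low genes. The smallest of a gene's 5 differences is the one printed unless another tissue is named, with its standard error and the Benjamini-Hochberg adjusted p of limma, a linear model fitted across all genes and 34 air libraries. In that model all 6 tissues share the estimate of a gene's spread. A standard error and p thus also reflect libraries outside the pair of tissues compared. No gene lengths were used, so a level is compared between tissues and never between genes.

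Of 15536 genes tested, 485 were higher in liver than in all 5 tissues (3.12%) and 366 were lower (2.36%). Every liver library lay above every other library for 707 genes (4.55%) and below for 2588 (16.7%). Against single tissues, 793 genes were higher in liver than in lung (5.10%), 850 than in adrenal (5.47%), 1005 than in hypothalamus (6.47%), 820 than in adipose tissue (5.28%) and 1428 than in muscle (9.19%). Lower in liver were 4010 (25.8%), 2497 (16.1%), 4406 (28.4%), 2666 (17.2%) and 1693 (10.9%) in the same order of tissues. Among the higher genes the median of the smallest difference was 4.97. The smallest difference reached 8-fold in 376 of them, 32-fold in 242 and 128-fold in 94. Together the 485 genes took 47.9 to 51.8% of the reads of each liver library, and 87 of them averaged at least 1000 CPM. Among the lower genes the median was −2.41, and 70 were at least 8-fold lower in liver than anywhere else. Of those 366, 315 averaged under 10 CPM in liver. At the edge of the threshold stood Osgin1 (2.01), Tm6sf2 (2.01) and Zfp69 (2.01) just inside and Sardh (1.99), Kyat3 (1.98) and Ces2c (1.97) just outside. The corresponding lower genes were Shisa4 (−2.0004), Zfp423 (−2.0046) and Pde7b (−2.0055) inside and Gpat3 (−1.9976), Ccnd2 (−1.9972) and Nol3 (−1.9963) outside.

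**Figure D1:**
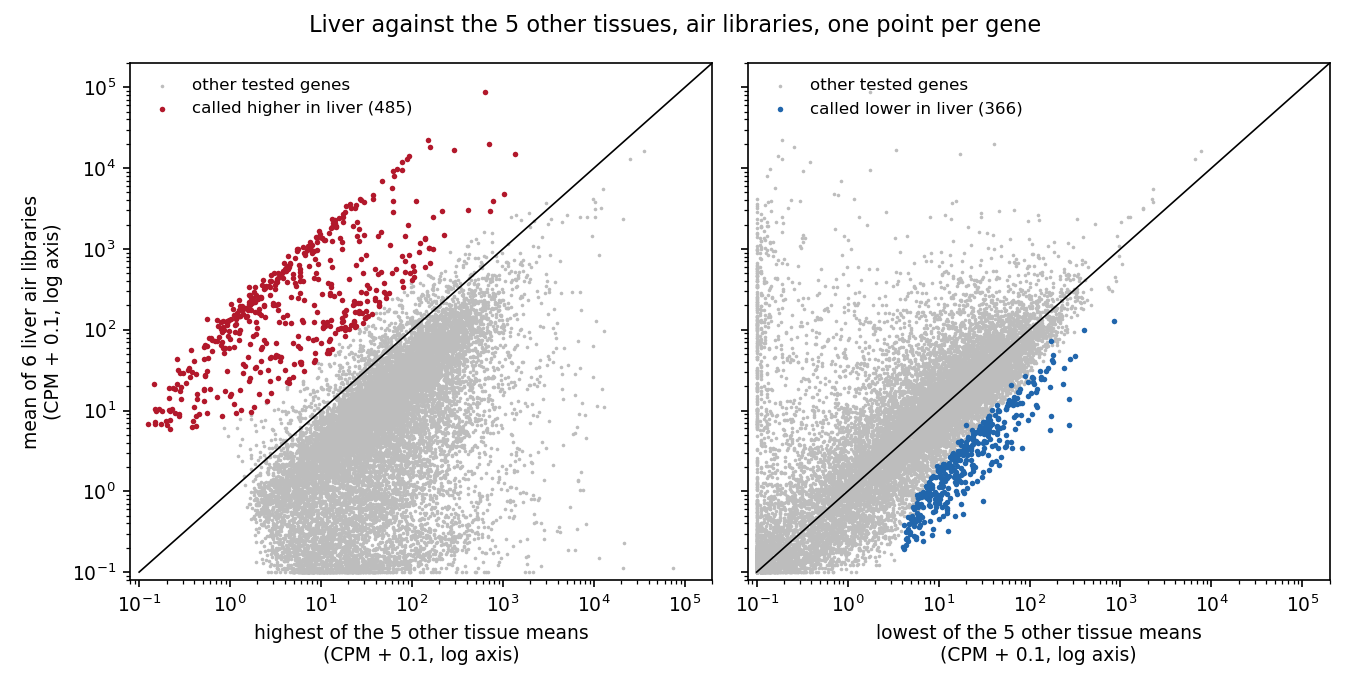
Mean level of each tested gene in 6 liver air libraries (vertical, CPM + 0.1, log axis) against the highest (left) and the lowest (right) of the 5 other tissue means (horizontal, same unit, log axis), with the line of equality. The 485 genes called higher reach up to 87273 CPM, the mean of Alb, whereas the 366 genes called lower sit mostly under 10 CPM in liver.

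Per-million values are shares, and liver gives a large share to few genes. Its 10 highest genes took 22.4 to 24.7% of reads, against 6.23 to 8.11% in lung, 6.37 to 7.99% in hypothalamus and 20.0 to 25.1% in muscle. Between 86 and 129 genes made up 50% of a liver library, while a lung library needed 892 to 952. The median gene was accordingly lower in liver than in lung by 1.10 on the log2 scale, lower than in hypothalamus by 1.04 and lower than in muscle by 0.16. With TMM factors, which set the bulk of genes level between tissues, these medians lay between −0.04 and 0.09, and 686 genes were called higher (4.42%) and 129 lower (0.830%). Higher genes were thus 57.0% of calls on CPM and 84.2% with TMM. All 485 higher genes were also called with TMM, but 122 of the 366 lower ones were, and each lower gene named below is marked where that call was lost. In bulk tissue, fewer cells of a type and less RNA per cell cannot be told apart.

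Libraries of 3 other tissues held liver genes at low levels. Over 87 liver genes that adipose tissue and muscle nearly lack, each at 500 or more CPM in liver, the median level was 1.81% of the liver mean in Adrenal Air 11, 1.06% in Adrenal Air 9 and 0.549% in Adrenal Air 2. It was 1.39% in Lung Air 8, 0.759% in Lung Air 2, 0.868% in Hypothalamus Air 1 and 0.822% in Hypothalamus Air 6. The other adrenal, lung and hypothalamus libraries stood between 0.0128 and 0.158%, adipose libraries at 0.0138% or less, and all 6 muscle libraries at 0, the last 2 tissues being low by the choice of genes. Adrenal gave the smallest difference for 243 of the 485 higher genes (50.1%), lung for 103, hypothalamus for 82, adipose tissue for 48 and muscle for 9. Without the 7 libraries above 0.5%, 489 genes were higher and 381 lower. The number called higher in each hepatic list below was the same without them, except for endocrine genes (14), amino acid genes (31) and P450 genes (18). The part of these liver reads in the differences was not tested further.

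The reverse was seen in some livers. Liver Air 1 held 8 lung markers at a median of 3.30% of their lung mean (2.41 to 4.91%), for example 318 CPM of the surfactant protein gene Sftpa1, which ran from 0.480 to 35.3 in the other livers and from 7497 to 11640 in lung. Liver Air 2 held 9 adrenal markers at 0.470% of their adrenal mean, and the other livers at 0.0669% or less. Liver Air 1 also stood apart on the first principal component (57.8% of the variance among livers), with a median correlation with the other livers of 0.953 against 0.977 to 0.990. Without it 442 genes were called lower. The part of its lung marker level in the results was not tested.

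**Figure D2:**
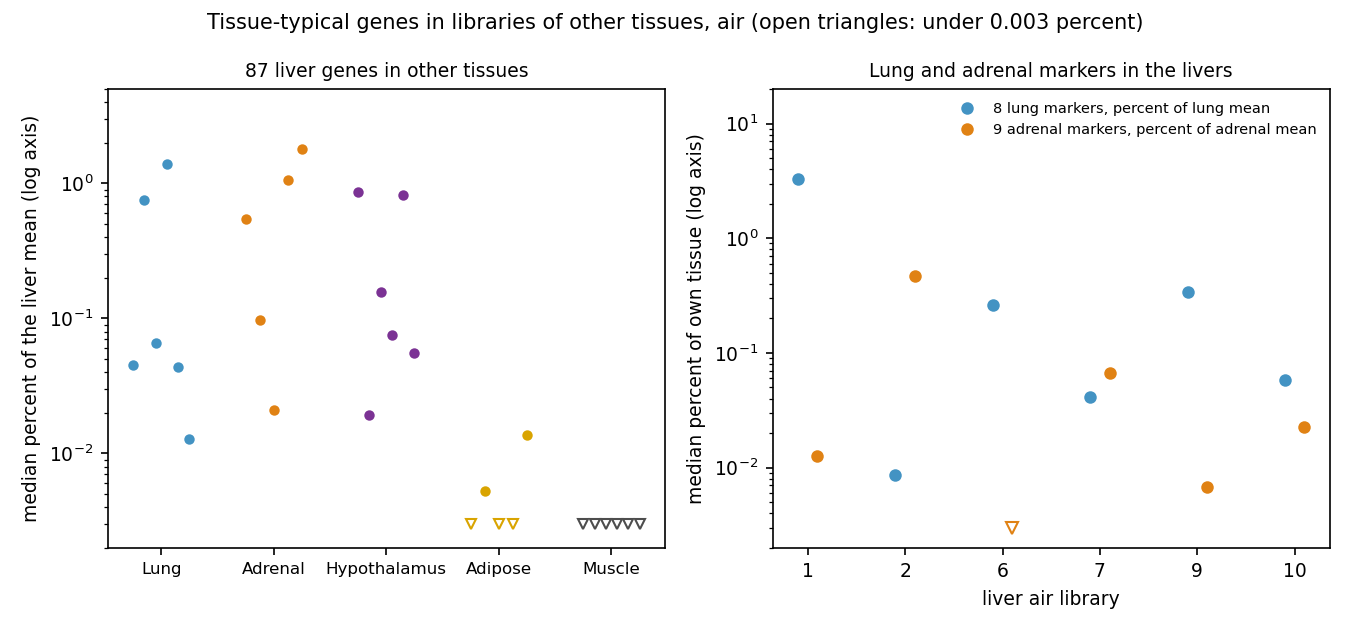
Left, median level of 87 liver genes in each air library of the other tissues, as a percentage of the liver mean (log axis, open triangles under 0.003%). Right, median level of 8 lung and 9 adrenal markers in each liver library as a percentage of their own tissue's mean (log axis), highest for lung markers in Liver Air 1 (3.30%) and for adrenal markers in Liver Air 2 (0.470%).

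Of 34 genes tested for carriers and protease inhibitors of plasma, 31 were higher in liver and 0 lower, with a median difference, averaged over the 5 tissues, of 8.53, against −0.96 over all genes tested. The counts of 0 lower genes given here and for the lists below are from limma. At an unadjusted p under 0.05 in all 5 contrasts, with no fold limit, they stayed at 0 except for 1 conjugating enzyme gene and 1 sex-patterned gene. DESeq2 and edgeR with TMM also gave 0 in each, and edgeR on library totals 0 except for 1 lipoprotein and 1 sex-patterned gene. Alb encodes albumin, the main carrier protein of plasma. It had 69463 CPM in Liver Air 1 and 81853 to 96153 in the other 5 livers. The lung libraries gave 17.9, 44.7 and 1049 (lowest, median and highest), and those of hypothalamus 10.7, 102 and 828. The adrenal libraries 2, 6, 8, 9 and 11 gave 514, 101, 13.9, 960 and 1595. Every liver thus lay far above every other library, and the wide range within adrenal ran in the order of the liver gene percentages given above. The adipose libraries 2, 5, 6, 9 and 12 had 285, 328, 233, 135 and 402 CPM of Alb. Adipose tissue gave the smallest difference for Alb, 8.38 (SE 1.07, adjusted p = 2.05e-08).

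Gc, the vitamin D binding protein, had the largest smallest difference of all genes (8.53, SE 1.02, adjusted p = 4.83e-09), with 8276, 15572 and 16129 CPM in liver (lowest, median and highest) and at most 241 in any other library. Serpina3c, a protease inhibitor gene, followed with 8.50, and Mug1, a rat alpha macroglobulin that traps proteases, with 8.44. Ahsg, which encodes fetuin-A, a binder of calcium phosphate, had 8.26. The smallest differences among the 31 called members were those of Hpx and Itih3. The haem carrier Hpx had 3212 to 4226 CPM in liver and 933, 833, 551, 681 and 929 in Adrenal Air 2, 6, 8, 9 and 11 (difference 2.35, SE 0.60, adjusted p = 0.000728). These adrenal values did not follow the liver gene percentages. Itih3, a hyaluronan-binding protein gene, had 3093 to 5411 in liver and 900 to 1200 in hypothalamus (2.18, SE 0.60, adjusted p = 0.00127). These 2 genes were chosen for mention after their values were seen, as was Rbp4, the carrier of vitamin A. Rbp4 was not called, with 1389 to 3330 in liver and 974 to 1435 in adipose tissue.

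Several genes with large differences are shown by the 150 bases before their annotated start, because 3 of them hold the same short motif close to it. As the genes higher in liver were picked with their motifs known, finding a motif in them is no result. The sequences are from RefSeq (GRCr8), 5′ to 3′ on the gene's strand. Capitals mark matches on either strand to GTTAAT, a part of the site of hepatocyte nuclear factor 1, to CAAAGTCCA, a sequence bound by hepatocyte nuclear factor 4, and to CCAAT, a common promoter box. Oxct1 and Pkm, which were lower in liver, stand beside them. The genes are on chr14:17906980-17907129 (minus strand, Alb), chr2:170700876-170701025 (minus, Fgb), chr2:170672019-170672168 (plus, Fga), chr5:68656138-68656287 (minus, Baat), chr9:76063713-76063862 (plus, Cps1), chr2:54963814-54963963 (plus, Oxct1) and chr8:68953485-68953634 (plus, Pkm).
Alb: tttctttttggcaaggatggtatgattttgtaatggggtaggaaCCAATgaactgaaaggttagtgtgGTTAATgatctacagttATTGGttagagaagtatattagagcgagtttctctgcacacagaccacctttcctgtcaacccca
Fgb: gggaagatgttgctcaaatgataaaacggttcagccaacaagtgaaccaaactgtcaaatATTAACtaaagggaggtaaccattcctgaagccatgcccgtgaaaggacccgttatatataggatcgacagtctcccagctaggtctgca
Fga: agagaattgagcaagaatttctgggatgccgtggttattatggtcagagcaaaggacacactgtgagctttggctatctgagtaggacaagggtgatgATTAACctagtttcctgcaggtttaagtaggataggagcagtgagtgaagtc
Baat: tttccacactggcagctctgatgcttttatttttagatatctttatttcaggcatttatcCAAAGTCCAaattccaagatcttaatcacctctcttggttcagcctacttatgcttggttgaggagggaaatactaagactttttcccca
Cps1: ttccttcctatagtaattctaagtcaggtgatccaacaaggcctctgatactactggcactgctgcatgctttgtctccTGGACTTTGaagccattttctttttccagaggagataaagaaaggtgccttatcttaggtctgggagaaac
Oxct1: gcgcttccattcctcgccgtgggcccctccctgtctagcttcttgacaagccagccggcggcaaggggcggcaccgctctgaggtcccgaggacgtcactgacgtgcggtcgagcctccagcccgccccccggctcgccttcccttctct
Pkm: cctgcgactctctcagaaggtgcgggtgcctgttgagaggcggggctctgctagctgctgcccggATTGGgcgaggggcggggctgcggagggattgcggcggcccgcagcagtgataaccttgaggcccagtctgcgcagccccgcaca
GTTAAT lay 82 bases before the start in Alb and, on the opposite strand, 90 bases before it in Fgb and 52 in Fga. CAAAGTCCA lay 90 bases before the start of Baat and, on the opposite strand, 71 before that of Cps1. The CG dinucleotide occurred 1 time in the Alb stretch, 4 times in Fgb, 1 time in Fga and 0 times in Baat and Cps1, against 15 times in Oxct1 and 12 in Pkm. These counts of single genes were not set against all genes. Windows of 250 bases before to 50 bases after the start were found for 11528 tested genes, and motifs were sought in the first 250 bases. GTTAAT occurred in 4.2% of these genes, CAAAGTCCA in 0.3% and CCAAT in 35.1%. That stretch is longer than the 150 bases shown, so these shares are no background for the genes picked here. A comparison of whole gene groups by these features is void, since 70.5% of the higher and 71.6% of the lower genes had a window, under the 80% set for such a check. A match is a run of letters and not a measured binding site.

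Clotting factor genes were higher in liver in 22 of 33 cases and lower in 2 (median 6.95). The fibrinogen chains Fgb and Fga, which form the clot fibre, differed by 8.36 (SE 0.89, adjusted p = 4.00e-10) and 8.26 (SE 0.84). Fgb had 2704, 4147 and 5090 CPM in liver and 0.362, 1.87 and 45.7 in lung. The gamma chain gene Fgg, chosen after its values were seen, ran from 2491 to 4777 in liver but from 76.7 to 149 in lung, so its smallest difference was against lung (5.16, SE 0.68, adjusted p = 3.04e-08). Plg (plasminogen, 8.01), Cpb2 (a brake on clot breakdown, 7.86) and F2 (prothrombin, 7.74) were also among the higher genes. The 2 lower members are made outside the hepatocyte in the textbook view. F13a1, the catalytic subunit of the clot-linking factor XIII, had 0.184 to 1.57 CPM in liver and 97.2 to 263 in adipose tissue. Its smallest difference was −3.06 (SE 0.27), against lung. F3, tissue factor, the trigger of clotting, differed by −2.33 (SE 0.26), and its call was lost with TMM.

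Complement genes, which encode the plasma system that tags and lyses microbes, were higher in 15 of 32 cases and lower in 2 (median 3.43). The terminal components C9 (7.72, SE 0.58), C8a (7.37) and C8b (7.19) and the inhibitor subunit C4bpb (7.31) had large differences, as did the pentraxin Crp (8.30, SE 0.92). C7, a neighbour of C8 and C9 in the lytic pore, went the other way. It had 3.42 to 30.5 CPM in liver, 319 to 519 in lung and 198 to 767 in adipose tissue. Its difference of −2.04 (SE 0.33) to hypothalamus passed by little, and the highest liver (30.5) lay above the lowest hypothalamus (29.8). It was lost with TMM (−0.72) and without any 1 of Liver Air 2, 7 or 9 or Hypothalamus Air 2, 3 or 7 (weakest −1.79). Cd55, a membrane brake on complement, had 0.132 to 3.31 in liver (−2.06, SE 0.24), and lost its call with TMM (−1.45) and without any 1 of Liver Air 2, 7 or 10 or Adrenal Air 9 (−1.95 to −1.99).

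Lipoprotein genes were higher in 20 of 32 cases and lower in 0 (median 5.70). Apob, the structural protein of very low density lipoprotein, had 7497, 13100 and 18847 CPM in liver and at most 262 in any other library (8.29, SE 0.99, adjusted p = 5.23e-09). Apoa1, the main protein of high density lipoprotein, differed by 7.76, Apoa5, which promotes triglyceride clearance, by 7.60, Apoc1 a small lipoprotein protein, by 7.13 and Apoc3, which slows that clearance, by 7.10. Apoe was not called. Livers had 1569 to 3590 CPM of it and adrenal libraries 685 to 2635, so these groups overlapped. Apoe was chosen for mention after its values were seen.

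Bile acid genes were higher in 16 of 26 cases and lower in 0 (median 6.66). The uptake carriers Slco1b2 (7.96, SE 0.70) and Slc10a1 (7.64, SE 0.61), the export pump Abcb11 (7.41, SE 0.61) and the conjugating enzymes Baat (7.95, SE 0.60) and Slc27a5 (7.19, SE 0.49) had the largest differences. Baat was also among the most even genes of the livers, at 1163 to 1269 CPM in 6 of 6. Cyp7a1, the rate-limiting enzyme of bile acid synthesis, varied far more. It had 63.1, 84.1, 176, 36.1, 141 and 26.0 CPM in Liver Air 1, 2, 6, 7, 9 and 10, against at most 6.26 elsewhere (5.04, SE 0.42, adjusted p = 1.05e-12).

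Genes of urea synthesis and ammonia handling were higher in 12 of 15 cases and lower in 0 (median 5.32). The mitochondrial entry enzyme Cps1 differed by 8.09 (SE 0.91) with 6588 to 10213 CPM in liver, the next enzyme Otc by 7.42 (SE 0.42), arginase Arg1 by 5.78 (SE 0.43), the activator enzyme Nags by 4.94 (SE 0.21) and the urea and glycerol channel Aqp9 by 3.74 (SE 0.23). The 3 members not called were Glul, Glud1 and Rhbg. In amino acid breakdown and related steps 30 of 45 genes were higher and 0 lower (median 5.71). Uox, urate oxidase, which rodents keep, had 1492 to 3280 CPM in liver and at most 38.7 elsewhere (7.94, SE 0.78). Hao1, a peroxisomal oxidase of glycolate, differed by 7.47, the methyl transfer enzyme Bhmt2 by 7.38, the tyrosine pathway enzyme Hpd by 7.14 and Kynu of the tryptophan pathway by 7.11.

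**Figure D3:**
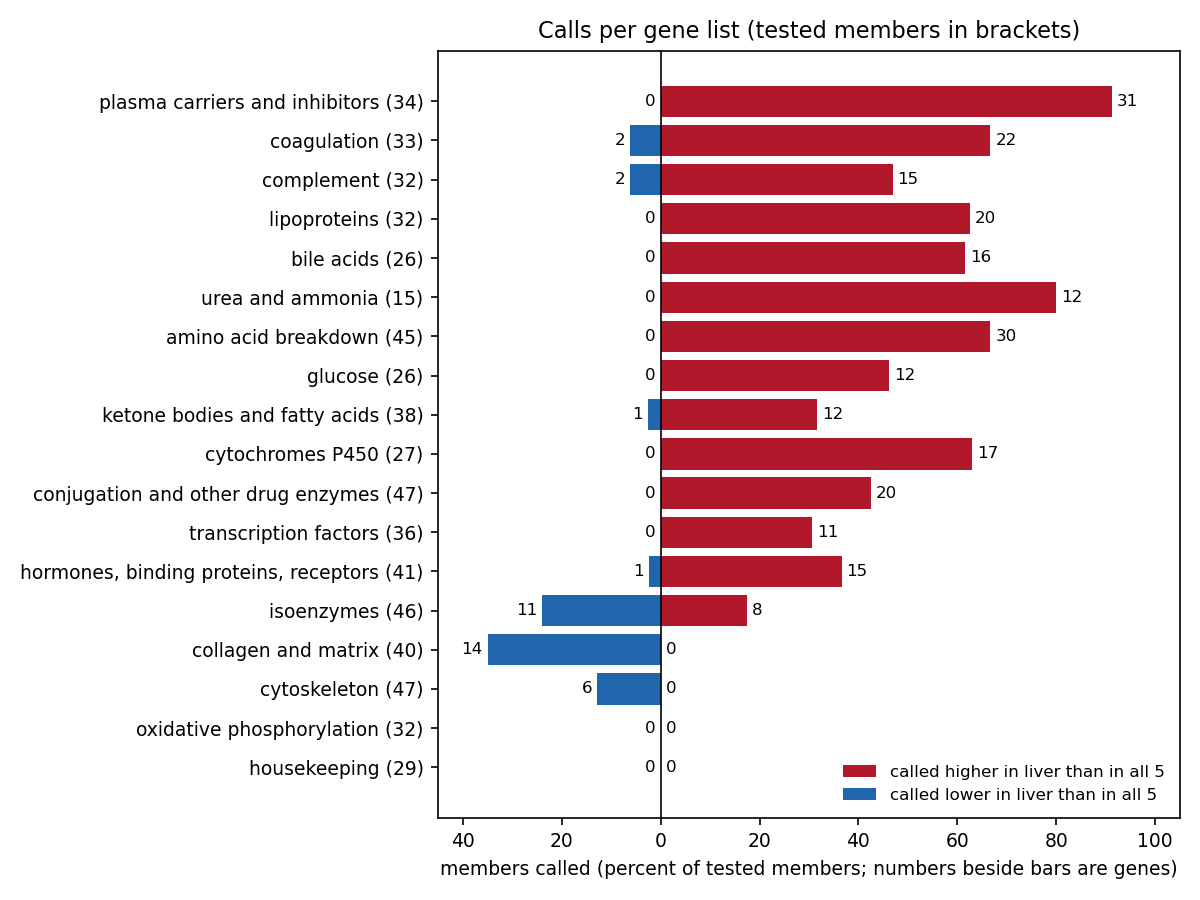
Share of the tested members of 18 gene lists called higher (right, red) or lower (left, blue) in liver than in all 5 tissues, in percent, with the number of genes beside each bar. Plasma carriers had 31 of 34 higher, while collagen and matrix genes had 14 of 40 lower and 0 higher (1 higher with TMM). Over all tested genes 3.12% were higher and 2.36% lower.

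Glucose genes were higher in 12 of 26 cases and lower in 0 (median 3.64), and several enzymes of the pathway come in a liver form and another form. Of 46 genes of enzymes and carriers that come in several forms, 8 were higher in liver and 11 lower (10 and 7 with TMM). The liver form of pyruvate kinase, Pklr, had 53.2, 112 and 151 CPM in liver and at most 1.92 elsewhere (6.03, SE 0.27, adjusted p = 7.74e-20). Its counterpart Pkm, the form of most other tissues, had 9.67, 12.0 and 22.0 in liver and 229, 262 and 329 in lung, where the difference was smallest (−4.26, SE 0.19, adjusted p = 2.11e-20). Muscle had 1666, 2626 and 4027 of Pkm. Neither gene's liver values overlapped those of any other tissue.

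Aldoa, the aldolase of muscle, ran from 27.5 to 42.9 CPM in liver and from 192 to 318 in lung (−2.82, SE 0.22, call lost with TMM). Of the glucose carriers, Slc2a2, the liver form, was higher (7.13, SE 0.50), while the high-affinity form Slc2a3 (−2.73, SE 0.14) and the insulin-sensitive form Slc2a4 (−2.90, SE 0.36) were lower. Slc2a4 had 0.223 to 1.57 in liver and 464 to 624 in muscle. G6pc, which frees glucose from its phosphate, differed by 6.73 (SE 0.71) and Fbp1 of gluconeogenesis by 6.26 (SE 0.42). Hk2 (−2.57, SE 0.17), Pfkm (−2.22, SE 0.28) and Gys1 (−2.20, SE 0.12), the forms typical of muscle, were lower, and all 3 calls were lost with TMM.

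Mat1a, the liver enzyme making the methyl donor S-adenosylmethionine, was higher by 6.63 (SE 0.69), and Mat2a was lower in every contrast but fell short of 4-fold to adipose tissue (33.5 to 78.2 CPM in liver, 145 to 237 there, difference −1.92). Without Liver Air 1 it was called. Gls2, the liver glutaminase, was higher by 2.91 (SE 0.14). Ldhb, the lactate dehydrogenase subunit of heart-type tissues, had 1.86 to 2.52 in liver and 17.3 to 59.0 in adrenal (−3.61, SE 0.31). Pfkfb3, which speeds glycolysis, had 2.30 to 7.00 in liver (−3.71, SE 0.25). Ldha was not called, with 324 to 592 in liver and 410 to 1136 in muscle.

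**Figure D4:**
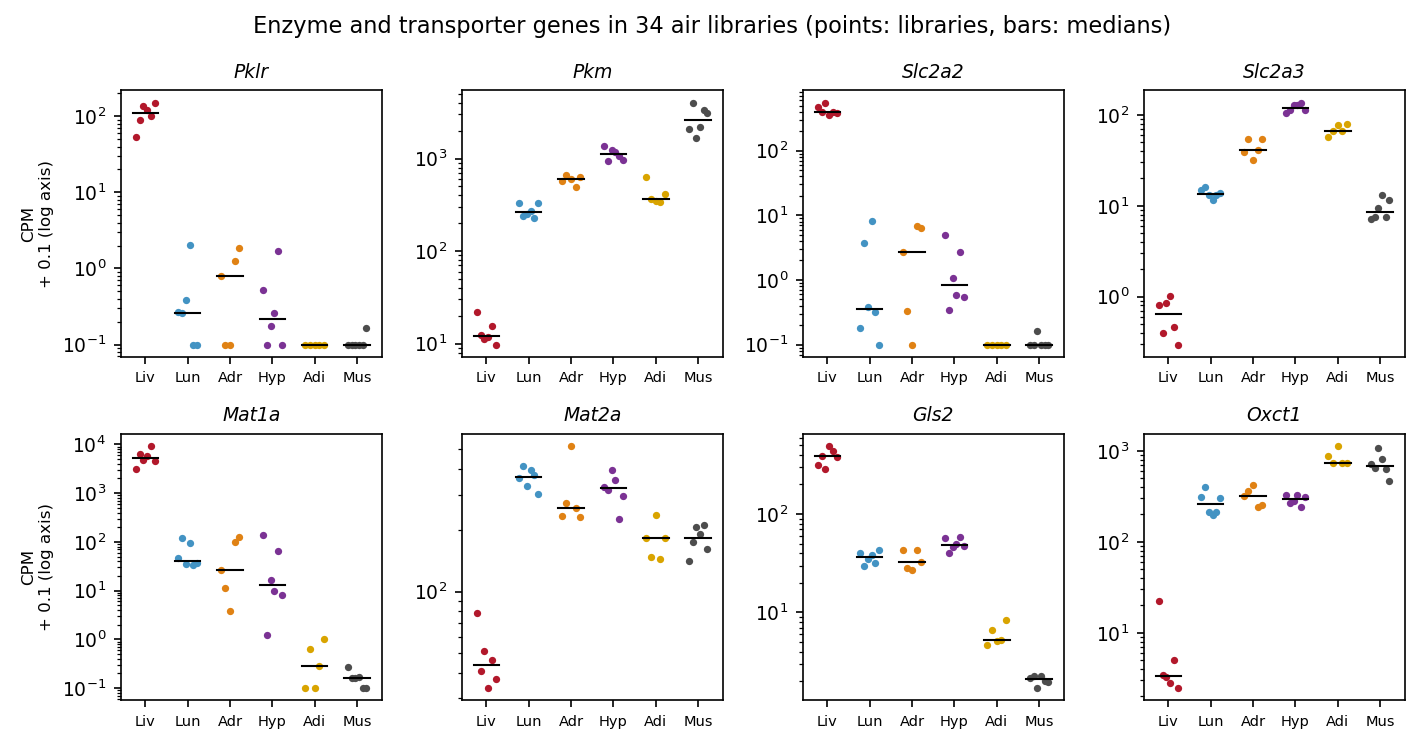
Level in CPM + 0.1 (log axis) of 8 enzyme and carrier genes in the 34 air libraries, by tissue (Liv liver, Lun lung, Adr adrenal, Hyp hypothalamus, Adi adipose, Mus muscle); points are libraries and bars medians. Pklr, Slc2a2, Mat1a and Gls2 stood highest in liver, and Pkm, Slc2a3, Mat2a and Oxct1 lowest, with Mat2a short of 4-fold.

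Of 38 ketone body and fatty acid genes 12 were higher and 1 lower (median 1.90). The 1 lower gene had the largest difference of all lower genes and does the step that liver is known to lack. Oxct1, which lets a cell burn ketone bodies, had 22.1 CPM in Liver Air 1 and 3.36, 3.13, 2.70, 4.92 and 2.37 in Liver Air 2, 6, 7, 9 and 10. Lung libraries had 195, 258 and 405, adrenal libraries 241 to 423, hypothalamus 243 to 330, adipose tissue 729 to 1128 and muscle 462 to 1088. The difference to lung was −5.56 (SE 0.29, adjusted p = 2.52e-18), −5.97 without Liver Air 1 and −4.31 with TMM. Fabp1, the liver fatty acid binding protein, differed by 7.48 (SE 0.55), and the fatty acid hydroxylases Cyp4a2 by 7.32 and Cyp4a1 by 6.67. Cpt1a, the gate to fatty acid oxidation, was not called, with 183 to 641 in liver and 315 to 580 in adrenal.

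Cytochromes P450, which oxidise drugs and steroids, were higher in 17 of 27 cases and lower in 0 (median 6.43). Cyp2c6v1 (8.21, SE 0.91) and Cyp3a23/3a1 (8.15, SE 0.78) led them, and Cyp3a23/3a1 had 1342 to 3050 CPM in liver and at most 36.2 elsewhere. Of the conjugating and other drug enzymes 20 of 47 were higher and 0 lower (median 3.34), among them the glucuronosyltransferase Ugt2b35 (7.40), the sulfotransferase Sult1c3 (6.95) and the glutathione transferase Gsta2 (6.94). Genes known to differ between the sexes in rat liver included 8 higher and 0 lower of 12. The male form Cyp2c11 had 1719 to 2255 CPM in these male livers (7.88, SE 0.72), Cyp2c13 1597 to 2152 (7.83) and Cyp3a2 404 to 637 (7.49). Cyp2c12, the form typical of females and chosen after its values were seen, had 5.95 to 9.80 in liver and at most 0.242 elsewhere. Members of these families are close copies, and the authors' counting could have split reads among them, so single members are uncertain.

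Among transcription factors of the liver programme 11 of 36 were higher and 0 lower (median 2.58). Creb3l3, a liver factor of fasting and lipid genes, differed by 7.32 (SE 0.52), Hnf4a, a central hepatocyte regulator, by 6.73 (SE 0.53), the drug sensor Nr1i2 by 5.65 (SE 0.26), the bile acid receptor Nr1h4 by 4.17 (SE 0.17) and the forkhead factor Foxa3 by 3.70 (SE 0.18). Hnf4a had 421 to 691 CPM in liver and at most 12.3 elsewhere. Hormones, their binding proteins and receptors, not all of them for hormones, were higher in 15 of 41 cases and lower in 1 (median 2.84). The higher ones included Fgl1, a secreted fibrinogen-like factor (6.95), the thyroid hormone activator Dio1 (6.48), Igfals, which holds IGF in plasma (6.47), the asialoglycoprotein receptor Asgr1 (6.08) and the inhibin family chain Inhbc (5.61). The 1 lower gene, Igfbp5, another IGF binder, had 33.1 CPM in Liver Air 1, 2.02 to 6.85 in the other livers and at least 122 elsewhere (−4.83, SE 0.37; −5.34 without Liver Air 1).

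Some genes of hormones, hormone receptors and glucose output that textbooks give to the liver were not called. A second tissue had a like or higher share of reads for most of them. They were chosen after their values were seen. Hamp, the iron hormone hepcidin, had 25.9, 176, 107, 124, 100 and 97.0 CPM in Liver Air 1, 2, 6, 7, 9 and 10 and 243, 270, 47.0, 81.9 and 219 in Adrenal Air 2, 6, 8, 9 and 11. The 2 groups overlapped, and all 17 lung, hypothalamus and adipose libraries had 2.69 or less. Hfe2, hemojuvelin, which sets hepcidin, had 47.5 to 94.1 in liver and 578 to 830 in muscle. Agt, the angiotensin precursor, had 650 to 1067 in liver, 589 to 1156 in adipose tissue and 441 to 600 in hypothalamus. Pck1 of gluconeogenesis had 3081 to 4507 in liver and 2031 to 4619 in adipose tissue. Igf1 had 505 to 940 in liver and 350 to 385 in adipose tissue, and Ghr, the growth hormone receptor, had 519 to 919 in liver and 865 to 1693 in adipose tissue. Prlr, the prolactin receptor, had 21.9 to 52.7 in liver and 348 to 513 in adrenal.

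The genes lowest in liver relative to every other tissue were of several kinds. After Oxct1 and Igfbp5, Grb10, an adaptor that restrains insulin and IGF receptor signals, had 14.4 CPM in Liver Air 1, 3.42 to 4.99 in the other livers and 150 to 911 elsewhere (−4.83, SE 0.20, adjusted p = 4.14e-21; −5.11 without Liver Air 1). Plagl1, a zinc finger gene, differed by −4.29 (SE 0.27). Slc25a4, the ADP/ATP carrier typical of muscle and heart, had 1.94 to 4.80 in liver and 43.6 to 1907 elsewhere (−3.94, SE 0.18). Abcc1, an export pump, differed by −3.91, the prohormone-processing enzyme Cpe by −3.89, the secreted growth factor antagonist Nbl1 by −3.85, the neuronal microtubule gene Map1b by −3.83, the lipoprotein receptor Vldlr by −3.76 and the sialyltransferase St3gal2 by −3.72. These genes were also called with TMM.

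Matrix and cytoskeletal genes were low as groups, but the calls depended on the scaling. Of 40 collagen and matrix genes 14 were lower and 0 higher (median −3.65). With TMM 3 were lower and 1 higher (median −2.70). DESeq2, which applies its own size factors, gave 4 lower and 1 higher, and edgeR with TMM also 4 and 1. On library totals edgeR gave 15 and 0, and an unadjusted p under 0.05 in limma gave 31 and 2. Tnxb had 3.06 to 18.4 CPM in liver and at least 74.0 elsewhere (−3.67, SE 0.26), the laminin chain Lamb2 had 6.96 to 21.2 and at least 97.4 (−3.42, SE 0.20), and both kept the call with TMM. Col1a1, the main fibrillar collagen (−3.09, SE 0.39), Lama5 (−2.95) and Sparc (−2.76) lost it. Of 47 cytoskeletal genes 6 were lower and 0 higher (median −2.09). With TMM 1 was lower, namely Map1b, and 1 higher. DESeq2 and edgeR with TMM each gave 2 lower and 1 higher, edgeR on library totals 6 and 0. An unadjusted p under 0.05 in limma gave 24 and 1. Cav1, the coat protein of caveolae, had 118 CPM in Liver Air 1 and 4.08 to 15.9 in the other livers, and 57.6 to 109 in adrenal (−2.75, call lost with TMM at −1.55). That high value moved with the lung markers of the same library, and its part in the result was not tested. The creatine carrier Slc6a8 was lower (−2.92, call lost with TMM), and 0 of 32 oxidative phosphorylation genes and 0 of 29 housekeeping genes were called in either direction by limma, edgeR or DESeq2. At an unadjusted p under 0.05, 0 of the former and 6 of the latter were lower. Their medians were −0.35 and −0.69 on CPM and 0.75 and 0.39 with TMM, so the direction of these groups flipped with the scaling.

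Markers of the other liver cells were called in part. Of 11 Kupffer cell markers tested, 3 were higher and 0 lower. Clec4f, a lectin of Kupffer cells, had 80.9 to 219 CPM in liver and at most 2.83 elsewhere (6.34, SE 0.28), Cd5l differed by 5.81 and the scavenger receptor Marco by 4.15. Macrophage markers shared by other tissues were not called, and the summed list ran from 497 to 798 in liver and from 466 to 1293 in adipose tissue. Of 10 sinusoidal endothelial markers 3 were higher, the lectin Clec4g (4.07), the hyaluronan scavenger Stab2 (3.68) and Oit3 (3.27), and 5 were with TMM. The 9 general endothelial markers summed to 135 to 381 in liver and 4623 to 6271 in lung. None was called by limma, edgeR or DESeq2, and 6 were lower at an unadjusted p under 0.05. Of 10 stellate cell markers the collectin Colec11 was higher (3.87), and the matrix genes Dcn (−2.58) and Col1a1 were lower, these 2 not with TMM. None of 9 bile duct markers was called by limma in either direction, and 0 passed at an unadjusted p under 0.05 or with edgeR or DESeq2. Their summed level was 38.6 to 67.1 in liver and 574 to 831 in lung.

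The 6 livers differed little in most of these genes. Over 382 higher genes with at least 50 CPM, the median SD of log2 levels was 0.29, as over 1925 other genes of that level (0.29). Liver Air 1 was the lowest of the 6 for 169 of the 382 genes and stood at a median of 89.1% of the liver mean, the others at 95.5 to 106%. Most of the genes that varied most were of 2 kinds. Some were lowest in Liver Air 1, which had 514 CPM of Bhmt against 1153 to 2944 in the others and 146 of Apoc3 against 436 to 753. It had 5.51 of LOC100911564 against 52.6 to 113, and 21.6 of Nr0b2, a repressor of bile acid synthesis, against 51.8 to 138. Otc was high there, at 1917 against 483 to 639. Without Liver Air 1 the SDs of Bhmt, Apoc3, LOC100911564 and Nr0b2 were 0.56, 0.28, 0.42 and 0.50. The median over the 382 genes was then 0.22. Cyp7a1, Tsku and Upp2 varied among the other livers. Tsku, a secreted protein of lipid metabolism, had 123, 335, 232, 48.2, 286 and 31.3 in Liver Air 1, 2, 6, 7, 9 and 10, and Upp2, a uridine phosphorylase, 38.9, 28.9, 141, 23.9, 83.0 and 44.7. The SDs of Cyp7a1, Tsku and Upp2 were 1.06, 1.41 and 0.95 with Liver Air 1 and 1.18, 1.57 and 1.05 without it. Osgin1, a stress-responsive gene, ran from 77.8 to 370 and fell short of 4-fold to adrenal without any 1 of Liver Air 1, 2, 7 or 10 or Adrenal Air 6 or 8 (1.79 to 1.99).

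**Figure D5:**
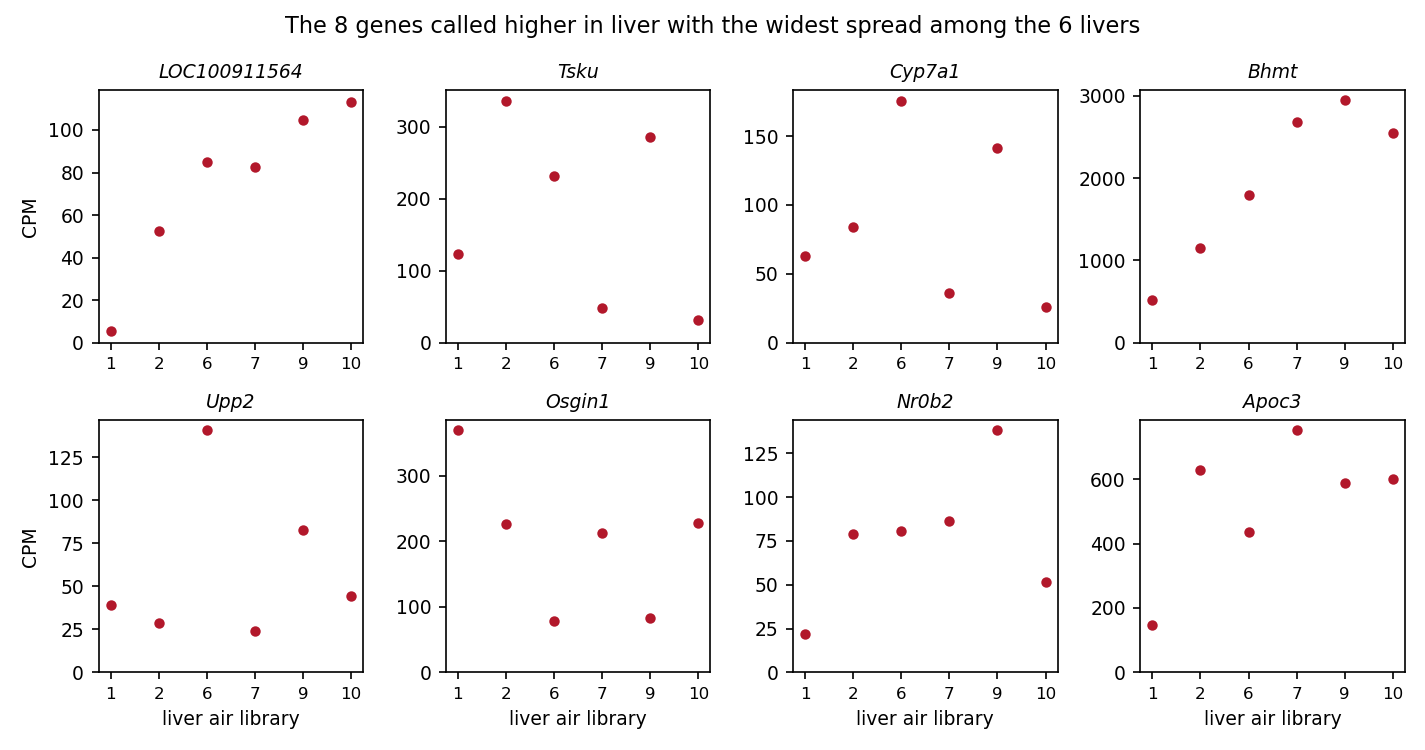
Level in CPM (vertical, linear axis from 0) of the 8 genes called higher in liver, with a liver mean of at least 50, that varied most among the 6 livers, by library. Cyp7a1 ran from 26.0 to 176 and Tsku from 31.3 to 335, both lowest in Liver Air 7 and 10, while Bhmt, Apoc3, Nr0b2 and LOC100911564 were lowest in Liver Air 1.

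Genes higher in liver often lay next to each other on the chromosomes. In the GRCr8 gene order, 90 of 434 placed higher genes (20.7%) were followed by another higher gene, against 3.05% of 14236 placed genes that were higher. For lower genes the values were 11 of 349 (3.15%) and 2.45%. Cyp2c11, Cyp2c6v1, LOC100361547, Cyp2c12, Cyp2c13 and Cyp2c22 formed the longest run, 6 genes on chromosome 1. Apoa1, Apoc3, Apoa4 and Apoa5 stood in a row on chromosome 8, Kng1, Hrg, Fetub and Ahsg on chromosome 11, and Afm and Alb at the end of a run on chromosome 14. Many neighbours are copies of one ancestral gene and may share reads.

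The same lists were set beside ozone within the liver table, where 847 of 12573 genes rose (6.74%) and 593 fell (4.72%) in 6 ozone livers against the same 6 air livers. Both comparisons share the air livers, so their calls are not independent and are given side by side. Of the 485 genes higher in liver 39 rose (8.04%) and 63 fell (12.99%). Of the lower genes 289 were tested, and 11 rose (3.81%) and 1 fell (0.35%). Lists went both ways. Of 15 urea and ammonia genes 6 rose and 1 fell, and of 45 amino acid genes 12 rose and 2 fell. Of 31 lipoprotein genes 0 rose and 4 fell, and of 37 transcription factors 5 rose and 6 fell. Slc25a15, the mitochondrial ornithine carrier, higher in liver than in all 5 tissues by 3.36, went from 9561 to 15325 deposited units in air to 54383 to 73948 after ozone (2.39, SE 0.13, adjusted p = 1.31e-07). Asl of the urea cycle, higher by 2.69, rose by 1.37 (SE 0.28, adjusted p = 0.0054). Of 28 bile acid genes 1 rose and 3 fell. Baat, higher in liver by 7.95, fell from 15559 to 19799 units in air to 5815 to 7613 (−1.35, SE 0.10, adjusted p = 1.98e-06), and Amacr, a racemase of bile acid precursors, fell by 1.51 (SE 0.21). The groups did not overlap for these 4 genes, which were picked for being among the lowest adjusted p of their lists. No share of such genes over all genes was taken, so the separation adds no support. Of 34 plasma carrier genes 0 rose and 2 fell, and of 27 cytochrome P450 genes 0 rose and 0 fell in limma. That P450 list leaves out Cyp4a1 and Cyp7a1, which rose in limma. Their changes were 0.51 (SE 0.14, adjusted p = 0.0306) and 1.54 (SE 0.47, adjusted p = 0.0493). At an unadjusted p under 0.05 the P450 counts were 0 and 4 and the plasma carrier counts 0 and 3, and edgeR gave 0 and 0 for P450 genes and 0 and 2 for plasma carriers.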

How the data were processed

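Poly(A) RNA libraries of 6 rat tissues were sequenced on a NextSeq 500, per the labels' protocols. Partek, DESeq2 and the build rn6 are listed in the submitters' processing notes, with no aligner or settings given. The deposited signal is gene reads divided by 1 size factor per library. Whole reads were recovered for 100.0% of values (tolerance 0.01), and 24 rows named as dates (at most 0.32% of reads) were left out. Of 70 labelled samples, 68 had a column.

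Each library was rescaled to 1000000 reads, which removes the authors' factor. Genes with a mean of 6 tissue means of at least 1 entered limma 3.58.1 (R 4.3.3; trended, robust, 34 air libraries, 5 contrasts) as log2(value + 1). A call needed a Benjamini-Hochberg adjusted p under 0.05 and 4-fold in each contrast. Ozone was fitted within the liver table on the deposited signal (mean at least 10). Alternatives used edgeR 4.0.16 and DESeq2 1.42.0. For the tissue contrasts, edgeR used library totals unless TMM is named, and DESeq2 its own size factors. In simulated data for the tissue contrasts, genes changed 8-fold were recovered in 50 of 50 cases. That simulation gave all tissues the same profile and a fixed spread, and changed no low genes. It therefore does not show how well low genes or shifted shares are called in the real data. For ozone, 17 of 67 genes changed 1.5-fold and 63 of 67 changed 2-fold were recovered, and 7 unchanged genes were called.

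Named genes were the 15 largest higher (liver mean at least 50) and 15 largest lower (other means at least 20), up to 5 called members per list with any of opposite direction, isoenzymes, hepatocyte markers, the 8 most variable, and up to 3 ozone genes per list; some of them are not reported here. The members and lists were chosen with earlier results of these data known. RefSeq matched 14236 of 15536 genes and 11528 promoters. The labels do not tie libraries to single rats, so p-values measure the spread between these samples. The groups share replicate numbers, but same-numbered libraries did not deviate together, and no pairing was used.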

Additional observations from a re-analysis of the deposited data

Results flagged for a closer look

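Sets of 6 liver values were examined for 129 genes named above and for the summed lung and adrenal markers. Of these 131 sets, 20 had 1 library separated from the others by more than Dixon's critical value on the log2 scale. Chance flags about 1 in 20 independent sets. Some genes here were picked for their spread among these livers or after their values were seen, and all sets share the same libraries. The count of 20 therefore cannot be set against that rate. Liver Air 1 was the separated library in 19. It was the lowest for Apoc3 (146 CPM, others 436 to 753), F2 (763, others 1249 to 1667), Fbp1 (170, others 376 to 466), Fgl1 (139, others 251 to 333), Gc (8276, others 13222 to 16129), Hamp (25.9, others 97.0 to 176), Hpx (3212, others 3876 to 4226), Itih3 (3093, others 4860 to 5411) and LOC100911564 (5.51, others 52.6 to 113).

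Liver Air 1 was the highest for Otc (1917, others 483 to 639) and Slc25a15 (1147, others 675 to 787). It was also the highest for 8 genes called lower in liver. Their values there were 3.31 for Cd55, 14.4 for Grb10, 22.1 for Oxct1, 2.36 for Plagl1, 1.57 for Slc2a4, 216 for Sparc, 5.19 for St3gal2 and 10.4 for Vldlr. The 1 separated value in another library was Cpb2 in Liver Air 2, at 1168 against 922 to 1006.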

How the results depend on the processing

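Over 34 fits that each left out 1 library the higher count ran from 481 to 488, and the lower count from 335 (without Liver Air 2) to 442 (without Liver Air 1). Single contrasts then gave 781 to 801 higher and 3891 to 4174 lower genes for lung, 843 to 861 and 2445 to 2653 for adrenal, 991 to 1012 and 4317 to 4523 for hypothalamus, 814 to 825 and 2608 to 2732 for adipose tissue, and 1411 to 1447 and 1643 to 1798 for muscle. Ozone counts ran from 648 to 1012 risen and from 414 to 709 fallen. The lower count in all 5 tissues was 129 with TMM, 130 with median-of-ratios factors, and 709 and 90 with pseudocounts of 0.25 and 5. It was 1753 and 70 at 2-fold and 8-fold, 1255 with edgeR, 483 with edgeR and TMM, and 559 with DESeq2. It was 42 where every library had to stand 4-fold apart, and 229 in ozone libraries. Of the 366 main lower genes, edgeR shared 358, edgeR with TMM 183 and DESeq2 194. The matching higher counts were 686 with TMM, 722 with edgeR and TMM, 689 with DESeq2, 497 with edgeR, and 479 in ozone libraries. For Osgin1 the lowest of the 5 differences changed sign in ozone libraries (−2.18). Within the liver table Osgin1 itself changed by −4.06 after ozone (SE 0.38, limma adjusted p = 9.36e-06).

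Single contrasts moved as follows, in the order lung, adrenal, hypothalamus, adipose tissue and muscle unless named. TMM gave 1493, 1406, 1895 and 1333 higher and 1857, 1034, 2626 and 1398 lower for the first 4, and median-of-ratios factors 1420, 1354, 1632 and 1303 higher and 1853, 1031, 2827 and 1363 lower. A pseudocount of 5 gave 2180, 1185, 2745, 1421 and 998 lower. A limit of 2-fold gave 1252, 1322, 1618, 1293 and 2617 higher and 8263, 7605, 7948, 6801 and 3728 lower. A limit of 8-fold gave 658 higher for hypothalamus and 886 for muscle, and 1853, 920, 2597, 1202 and 854 lower. edgeR gave 4456, 4272 and 2786 lower for adrenal, adipose tissue and muscle, edgeR with TMM 1838, 1779, 2420, 1875 and 2382 higher, and DESeq2 1760, 1760, 2068, 1855 and 2300 higher. Separation of every library gave 935 higher for muscle and 2141, 990, 2837, 1319 and 824 lower. The cause was not tested, beyond the fewer or more genes that a fold limit admits by construction.

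The 3 alternatives chosen after seeing the data gave 486 and 366 with liver-proportional reads subtracted, 489 and 381 without the 7 libraries, and 495 and 459 without Liver Air 1 as well (479 and 358 shared with the main calls). With the replicate number as a block, 485 genes were higher (480 shared) and 383 lower (357 shared), and Osgin1 lost its call. The correlation of deviations was a median of −0.025 over 45 same-number pairs and 0.014 over 436 others, and the labels do not say what a number marks.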
